A study of Mus musculus with 18 samples.

Results

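Psca (prostate stem cell antigen) and 6 relatives of the Ly6 family were followed across liver, kidney and lung of mice with an inducible Ccne1 transgene. The 7 genes, Psca, Lypd2, Ly6d, Ly6k, Ly6e, Ly6a and Ly6c1, were taken by symbol from a table of 24062 genes. They were chosen because Psca was high in lung with the transgene and because kidney expressed it without the transgene. The lung genotype difference and the Psca levels by tissue are therefore given as descriptions, with no test.

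Whole-tissue RNA was sequenced from 18 libraries in 6 groups of 3. Mice with a tetracycline-inducible Ccne1 transgene and the rtTA activator (CCNE-TA) were compared with mice that had rtTA alone (TA). All mice were of the C57BL/6 background, received doxycycline from 3 weeks of age and were 4 months old when killed, so the activator and the drug were common to all groups. The promoter that drives rtTA was not given in the sources used here. Replicates are numbered 1 to 3 within a group, and the labels do not say whether tissues of the same number came from 1 animal, so p-values measure the spread between these libraries.

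Proteins of the Ly6 family are small, disulphide-rich molecules with a three-finger fold, most of them held on the outer cell surface by a glycosylphosphatidylinositol (GPI) anchor. Some bind nicotinic acetylcholine receptors, others are known mainly as surface markers of stem, immune, endothelial or epithelial cells, and several respond to interferon. Psca is known from the epithelium of stomach, bladder and prostate, and in several carcinomas it is found at raised levels.

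All 7 genes lie in 1 cluster on chromosome 15 of the mm10 build. In GENCODE, Psca spans chr15:74714839-74717069 on the plus strand, with 3 exons. Lypd2 (chr15:74732247-74734329, minus strand) has its nearest base 17.4 kb from the start of Psca. Ly6d (chr15:74762056-74763620, minus strand) and Ly6k (chr15:74796874-74799986, minus strand) follow. Ly6e (chr15:74955051-74959905, plus strand), Ly6a (chr15:74994877-74998031, minus strand) and Ly6c1 (chr15:75044018-75048830, minus strand) lie farther along. Of the exon bases of Ly6k, 47.6% overlap the antisense gene Gm17189, and since the library kit does not mark strand the reads of this pair cannot be told apart.

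Total counts ran from 26214869 to 61954486 in liver, 20352770 to 43202066 in kidney and 41597623 to 155323865 in lung. Levels are given as CPM, counts scaled to the size of the library, on 1 scale for all 18 libraries. The floor used, 3 counts, equals 0.084 to 0.15 CPM for livers, 0.061 to 0.11 CPM for kidneys and 0.013 to 0.05 CPM for lungs and covers counting error only. Ccne1, the check of the labels, reached 368 to 589 CPM in CCNE-TA livers, 408 to 744 CPM in CCNE-TA kidneys and 45.4 to 85.6 CPM in CCNE-TA lungs, and no more than 4.96 CPM in any TA library. Lung CCNE-TA 1 and TA 3 stood apart from the other lungs in 12 stratified squamous epithelium markers, which summed to 2110 and 3710 CPM there and to between 29.9 and 179 CPM elsewhere in lung. Liver CCNE-TA 3 also held such markers (46.3 CPM, against 1.74 to 5.30 CPM for the remaining livers). By Xist, liver CCNE-TA 1, CCNE-TA 2 and TA 1 came from females and the other 3 livers from males, while in kidney and lung replicate 3 of both genotypes was male. Liver TA 2 was thus male and kidney and lung TA 2 female, so by Xist that liver came from another animal.

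Psca was present in every kidney, in every lung with the transgene and, at a low level, in every liver with the transgene. Lungs without the transgene held traces of it, and livers without the transgene held 0 counts. In kidney it stood at 60.4, 53.8 and 110 CPM in CCNE-TA 1 to 3 and at 56.2, 51.0 and 53.2 CPM in TA 1 to 3. CCNE-TA 3 was the highest kidney and the groups overlapped. The log2 fold change of CCNE-TA over TA was 0.49 ± 0.27 (SE, edgeR adjusted p = 0.999).

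In lung, Psca stood at 9.72, 14.2 and 16.7 CPM in the 3 CCNE-TA libraries and at 0.0857, 0.0821 and 0.134 CPM in the 3 TA libraries. These values rest on 2273, 1783 and 1824 counts against 10, 9 and 8 counts, and all CCNE-TA lungs lay above all TA lungs. The means were 13.5 ± 3.52 and 0.100 ± 0.0287 CPM (SD, n = 3 per group), a ratio of 135 and a fitted log2 fold change of 7.09 ± 0.36 (SE). Of all lung genes tested with edgeR, 0.00594% were called at an adjusted p under 0.05. Nothing is read from that share, since Psca was chosen for its lung difference.

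Lung Psca and squamous keratins were ordered differently across the libraries. Krt13, a keratin of non-cornified stratified epithelium, had 904 CPM in CCNE-TA 1, 1490 CPM in TA 3 and between 0.85 and 43.5 CPM in the remaining 4 lungs. Psca was higher in CCNE-TA 3, where Krt13 was at 0.85 CPM, than in CCNE-TA 1. The 12 squamous markers summed to 2110, 179 and 29.9 CPM in CCNE-TA 1 to 3. Without CCNE-TA 1 and TA 3 the fitted difference in Psca was 7.49 ± 0.21 (SE), again a description with no test. Summed markers of urothelium, another epithelium known for Psca, ranged from 103 to 205 CPM in CCNE-TA lungs and from 144 to 163 CPM in TA lungs, with all 8 of 8 markers detected in each lung. The part of squamous and urothelial cells in the lung values of Psca was not tested.

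Other marker lists did separate the lungs by genotype. Cycling cell markers summed to 73.2 to 138 CPM in CCNE-TA and 32.0 to 45.9 CPM in TA lungs, with 10 of 10 detected in each. Hepatocyte markers summed to 43.7 to 201 CPM in CCNE-TA and 310 to 1590 CPM in TA lungs, with 8 of 8 detected. Of these lists edgeR called 0 genes in lung, 8 of the 10 cycling cell markers and 7 of the 8 hepatocyte markers had an unadjusted p under 0.05, and DESeq2 called 2 and 4. Of all 16823 lung genes tested with edgeR, 614 had an unadjusted p under 0.05, and DESeq2 called 183 of 18742. Their part in the lung values of Psca was not tested.

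Kidney transcripts were found in lung too. Per 100 counts of Aqp2, the collecting duct water channel, Psca stood at 1320 to 6690 counts in CCNE-TA lungs, at 10.3, 11.2 and 66.7 counts in TA lungs and at 8.60 to 24.0 counts in the 6 kidneys. Kap, a very abundant transcript of the proximal tubule, had 0, 8 and 1045 counts in CCNE-TA lungs 1 to 3 and 0 counts in each TA lung. In CCNE-TA lung 3, Psca stood at 175 counts per 100 Kap counts, against 0.100 to 0.536 in the kidneys. The kidney ratios are of whole kidney, where Kap itself ranged from 11300 to 53100 CPM, and parts of a kidney may differ. The part of kidney RNA in the lung values of Psca was not tested.

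**Figure D1:**
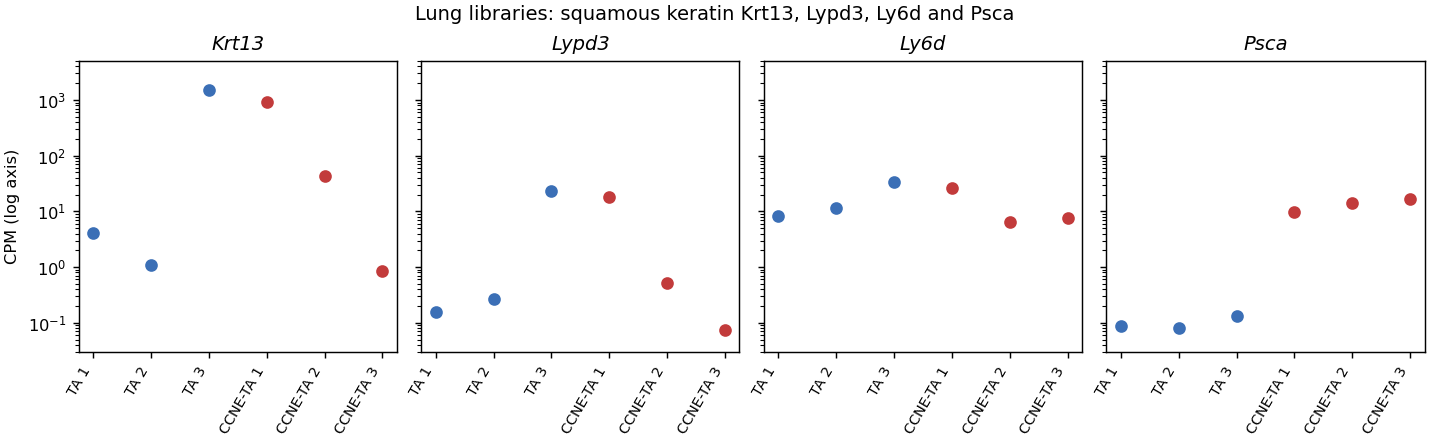
Level in CPM (log axis) of the squamous keratin Krt13 and of Lypd3, Ly6d and Psca in each of the 6 lung libraries, with TA libraries in blue and CCNE-TA libraries in red, 1 point per library. Krt13, Lypd3 and Ly6d are highest in TA 3 and CCNE-TA 1, whereas Psca is at 9.72 to 16.7 CPM in the CCNE-TA lungs and at 0.0821 to 0.134 CPM in the TA lungs.

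In liver, Psca had 33, 9 and 16 counts in the CCNE-TA libraries, or 1.46, 0.370 and 0.820 CPM, and 0 counts in each of the 3 TA libraries. The groups did not overlap, and 22.9% of all tested liver genes also had CCNE-TA livers all higher. The CCNE-TA mean of 0.883 ± 0.547 CPM (SD, n = 3) was at least 7.14-fold higher than the level of 3 counts per TA library. That bound is for counts as deposited, and most low counts were even numbers, so a count is not 1 molecule. These counts were too low for the expression filter of the liver fit. With no filter, the edgeR adjusted p was 0.00747, and DESeq2 gave 0.000109. Psca could be tested there only through its counts in the CCNE-TA livers, so nothing is read from these p values. It has 860 exonic nucleotides, and liver genes of at most 2000 had a median log2 fold change of 0.52. The fit corrected for exon length gave no liver value for Psca.

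Proximal tubule transcripts, which mark kidney RNA, were found in some livers. Kap had 898, 558 and 835 counts in CCNE-TA livers, 865 counts in liver TA 1 and 0 counts in liver TA 2 and TA 3. Psca stood at 1.61 to 3.67 counts per 100 Kap counts in the CCNE-TA livers, at 0 in liver TA 1 and at 0.100 to 0.536 in the 6 kidneys. Bile duct markers moved with Psca: 6 of the 8 tested rose in the CCNE-TA livers and 0 fell, with a summed level of 429 to 626 CPM against 104 to 111 CPM. Of all liver genes 13.7% rose and 14.8% fell. The part of kidney RNA and that of bile duct cells in the liver values of Psca were not tested. In bulk tissue, a change in the number of cells of a type and a change in RNA per cell cannot be told apart.

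In 1 fit of all libraries, the liver minus kidney difference of the genotype effects on Psca was 8.28 ± 1.38 on the log2 scale (SE, edgeR adjusted p = 0.00692). With all TA livers at 0, the fitted size depends on the prior count and is no bound. Psca entered this fit through its kidney and lung counts, and its kidney TA level had a part in choosing the gene, so the call is not independent evidence. In that test 9.52% of all genes were called, against 1 of the 7 Ly6 genes. No difference involving lung was tested, because the lung contrast was used in choosing the genes.

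In order of mean CPM, Psca was highest in kidney CCNE-TA (74.7 CPM) and kidney TA (53.5 CPM), whose ranges overlapped, followed by lung CCNE-TA (13.5), liver CCNE-TA (0.883), lung TA (0.100) and liver TA (0). From kidney TA downwards, each group lay wholly above the next. Per exon length, Psca stood at 62.2 ± 3.03 RPKM (CPM divided by exon length in kb, SD, n = 3) in TA kidney, below Ly6a and in the range of Ly6c1. In lung with the transgene its level was 15.7 ± 4.10 RPKM, in the range of Ly6d at 18.1 ± 14.9 RPKM.

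**Figure D2:**
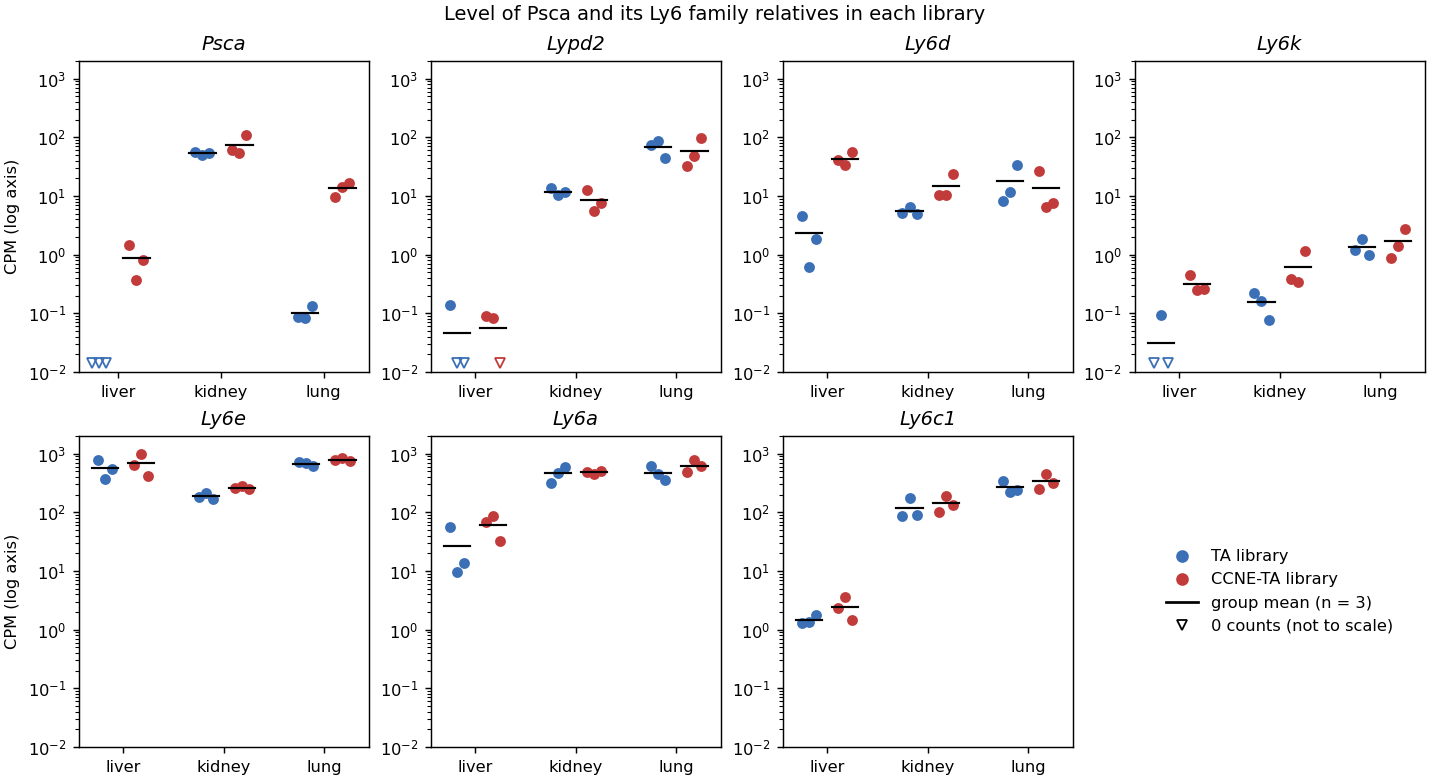
Level in CPM (log axis) of the 7 genes in each library by tissue, with TA in blue and CCNE-TA in red, 1 point per library, a bar for the mean of 3 and open triangles for libraries with 0 counts. Psca ranges from 0 in TA liver to 110 CPM in kidney, and Ly6d in liver is at 33.6 to 55.8 CPM with the transgene and 0.611 to 4.48 CPM without it.

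The genes whose pattern over the 18 libraries was most like that of Psca were found by Pearson's r of log2 CPM among 17154 genes. The first was Slc4a1 (r = 0.974), the anion exchanger of red cells and of acid-secreting collecting duct cells. Mean Slc4a1 levels, CCNE-TA before TA, were 42.1 and 40.8 CPM in kidney, 7.55 and 1.03 CPM in lung, and 3.17 and 0.426 CPM in liver. The next were 9530082P21Rik (0.910), Ctps2 (0.897), a CTP synthase, Gsg2 (0.895), the haspin kinase, and Hscb (0.893), an iron-sulphur cluster co-chaperone. The 18 points share 3 tissues, and the tissue levels make up most of each pattern, so these values describe likeness only. In lung the ratio of mean Slc4a1 levels was smaller than that of Psca, as the values above show.

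Ly6d encodes a GPI-anchored protein known from early B lymphoid progenitors and from squamous and urothelial epithelium. It rose in liver. The CCNE-TA livers stood at 40.3, 33.6 and 55.8 CPM and the TA livers at 4.48, 0.611 and 1.85 CPM. Every CCNE-TA liver was above every TA liver. The means were 43.2 ± 11.4 and 2.31 ± 1.98 CPM (SD, n = 3 per group), and the log2 fold change was 4.21 ± 0.65 (SE, edgeR adjusted p = 0.00733). Of the 4 Ly6 genes that passed the liver filter, Ly6d was the 1 called, while 28.5% of all 13811 liver genes were called. Of these 4, 1 had groups that did not overlap, with the CCNE-TA livers higher, against 22.9% of all genes.

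Some squamous markers moved with Ly6d in liver. Sprr1a, a cornified envelope precursor, stood at 1.41, 2.18 and 9.64 CPM in CCNE-TA and at 0.0561, 0.0940 and 0 CPM in TA livers. It was the 1 of 2 tested squamous markers that edgeR called, and DESeq2 called it and Krt15. Each TA liver lay below the floor of 3 counts for Sprr1a, which thus passed the filter only through the CCNE-TA livers. Nothing is read from its call. Krt13 was high in 1 liver, with 241 counts in CCNE-TA 3 and 0 counts in CCNE-TA 1 and 2, where Ly6d had 912 and 817 counts. Without liver CCNE-TA 3, the Ly6d difference was 3.95 ± 0.74 (SE, edgeR adjusted p = 0.0233). With the Xist class as a covariate it was 4.22 ± 0.64 (SE, edgeR adjusted p = 0.00848). Cycling cell markers moved with Ly6d in liver, where 10 of 10 rose and their summed level reached 74.5 to 210 CPM with the transgene and 11.3 to 29.3 CPM without it. Bile duct markers, 6 of 8 higher with 429 to 626 against 104 to 111 CPM, moved with it as well. Of all liver genes 13.7% rose. The part of these lists and of the squamous markers in the Ly6d values was not tested.

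Transcripts of short exon length were on the whole higher in CCNE-TA livers: the median log2 fold change was 0.52 for the 1973 genes of at most 2000 nucleotides and 0.02 for all genes. Ly6d has 744 exonic nucleotides. With a correction for exon length and GC content, the liver difference in Ly6d was 3.41 ± 0.61 (SE, edgeR adjusted p = 0.0129).

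In kidney, Ly6d stood at 10.3, 10.3 and 23.4 CPM in CCNE-TA and at 5.11, 6.50 and 4.93 CPM in TA libraries. All CCNE-TA kidneys lay above all TA kidneys, CCNE-TA 3 being the highest. The log2 fold change of 1.42 ± 0.34 (SE) did not pass the threshold, with an edgeR adjusted p of 0.999 and a DESeq2 adjusted p of 0.0595. Markers of urothelium, an epithelium known for Ly6d, summed to 87.6, 96.4 and 145 CPM in CCNE-TA and to 99.0, 62.9 and 65.8 CPM in TA kidneys, with CCNE-TA 3 again the highest; their part was not tested. The difference between the liver and the kidney effect was 2.77 ± 0.94 (SE, edgeR adjusted p = 0.0706), and DESeq2 gave an adjusted p of 0.016.

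In lung, Ly6d did not separate the genotypes. CCNE-TA lungs stood at 26.2, 6.46 and 7.68 CPM and TA lungs at 8.33, 11.7 and 33.2 CPM. The highest library of each genotype, CCNE-TA 1 and TA 3, was the one with high Krt13. The fitted difference was -0.41 ± 0.73 (SE), and without TA 3 it was 0.41. The most similar genes over the 18 libraries were C330027C09Rik (r = 0.847), Lmna (0.831), a nuclear lamin, Vtcn1 (0.812), an immune checkpoint ligand, Hells (0.807), a chromatin remodeller, and Kif22 (0.806), a mitotic kinesin. Vtcn1 averaged 7.83 CPM in livers with the transgene and 0.261 CPM in those without.

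Lypd2, a secreted or anchored Ly6 protein of epithelia, was a lung transcript in these data. It stood at 32.4, 48.1 and 98.5 CPM in CCNE-TA and at 73.7, 86.5 and 44.4 CPM in TA lungs, with overlap between the groups and a log2 fold change of -0.21. Kidneys held 12.7, 5.46 and 7.68 CPM in CCNE-TA and 13.6, 10.5 and 11.6 CPM in TA libraries, which also overlapped (log2 fold change -0.46 ± 0.31, SE, edgeR adjusted p = 0.999). In liver no library exceeded 0.140 CPM and 3 of 6 were at 0. Lypd2 lies near Psca on the other strand, and its groups overlapped in all 3 tissues.

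Ly6k, known from testis and from tumours, was the lowest of the 7 in TA kidney, at 0.186 ± 0.0901 RPKM (SD, n = 3). Its kidney levels were 0.379, 0.344 and 1.13 CPM in CCNE-TA and 0.224, 0.164 and 0.0753 CPM in TA libraries. The groups did not overlap, and the log2 fold change was 1.98 ± 0.72 (SE, edgeR adjusted p = 0.999). Liver CCNE-TA libraries held 0.442, 0.246 and 0.256 CPM, against 0, 0.0940 and 0 CPM in TA libraries, again with no overlap but below the expression filter. Of all tested genes, 2.97% in kidney and 22.9% in liver had CCNE-TA libraries all above TA libraries. In lung the groups overlapped, at 0.890 to 2.77 CPM in CCNE-TA and 0.985 to 1.86 CPM in TA.

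Ly6e, an interferon-inducible member known for its effects on virus entry, was the most abundant of the 7 in liver, at 151 ± 56.6 RPKM (SD, n = 3) in TA mice. Liver CCNE-TA libraries stood at 651, 983 and 424 CPM and TA libraries at 797, 373 and 544 CPM, with overlap; the log2 fold change was 0.27 ± 0.37 (SE, edgeR adjusted p = 0.600). Kidney CCNE-TA libraries stood at 258, 279 and 254 CPM and TA libraries at 181, 216 and 170 CPM, with no overlap. The kidney log2 fold change was 0.49 ± 0.19 (SE, edgeR adjusted p = 0.999). In lung the groups were apart as well, at 754 to 863 CPM against 612 to 733 CPM, a log2 fold change of 0.22 ± 0.15 (SE).

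In kidney, edgeR and DESeq2 called 0 of the 7 genes. Ly6k passed the kidney filter only through the CCNE-TA libraries and, without CCNE-TA 3, did not pass it, so it is left out of the counts here. Of the other 6, 2 (Ly6d and Ly6e) had an unadjusted edgeR p under 0.05. Of all 15247 kidney genes, 0.0131% were called by edgeR and 324 had an unadjusted p under 0.05. Ly6d and Ly6e also had CCNE-TA kidneys all above TA kidneys, as had 2.97% of all kidney genes. In lung, the same held for Ly6e and for Psca, which was chosen for it, and for 3.73% of all lung genes, and nothing is read from that count. The median log2 fold change was 0.99 over the 4 genes tested in liver and 0.38 over the 6 in kidney, beside 0.02 and 0.00 over all genes tested. In liver, genes of at most 2000 exonic nucleotides, as Ly6a, Ly6c1 and Ly6d are, had a median of 0.52. With the length and GC correction, the liver values were 0.81 for Ly6a, 0.42 for Ly6c1, 3.41 for Ly6d and 0.11 for Ly6e.

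**Figure D3:**
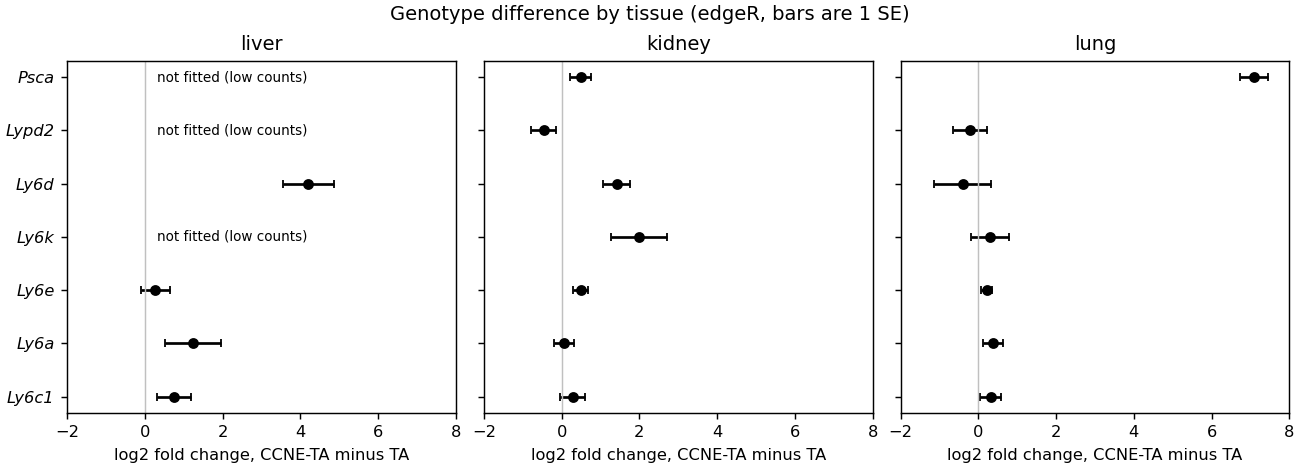
Log2 fold change of CCNE-TA over TA for the 7 genes in liver, kidney and lung, from edgeR fits with bars of 1 SE (n = 3 per group). Psca in lung (7.09) and Ly6d in liver (4.21) lie farthest from 0, and Psca, Lypd2 and Ly6k were too low in liver to be fitted.

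Ly6a (Sca-1) and Ly6c1 are surface markers of endothelial cells, and Ly6a is also known from blood stem cells and as interferon-inducible. In liver Ly6a stood at 67.6, 85.6 and 32.6 CPM in CCNE-TA and at 55.8, 9.64 and 13.8 CPM in TA libraries. TA 1, the female TA liver, lay within the CCNE-TA range and the other 2 TA livers below it. The log2 fold change was 1.24 ± 0.73 (SE, edgeR adjusted p = 0.243), and it was 2.38 without liver TA 1 (edgeR adjusted p = 0.0156). With the Xist class as a covariate it was 0.99 ± 0.28 (SE, edgeR adjusted p = 0.0359). In kidney Ly6a stood at 488, 449 and 507 CPM in CCNE-TA and at 320, 478 and 587 CPM in TA libraries, and in lung at 481, 778 and 620 CPM against 626, 448 and 362 CPM. Both overlapped, with log2 fold changes of 0.07 ± 0.26 (SE, edgeR adjusted p = 0.999) in kidney and 0.37 in lung.

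Ly6c1 was low in liver, at 2.30, 3.57 and 1.49 CPM in CCNE-TA and at 1.32, 1.36 and 1.75 CPM in TA libraries, with overlap (log2 fold change 0.74 ± 0.44, SE, edgeR adjusted p = 0.229). Kidney groups overlapped at 102 to 192 CPM in CCNE-TA and 87.6 to 175 CPM in TA (log2 fold change 0.28 ± 0.32, SE, edgeR adjusted p = 0.999). Lung groups overlapped at 251 to 453 CPM in CCNE-TA and 221 to 342 CPM in TA, a log2 fold change of 0.32. The 10 endothelial markers summed to 132 to 138 CPM in CCNE-TA and 207 to 272 CPM in TA livers, where 5 of 10 fell and 0 rose. Of all liver genes 14.8% fell and 13.7% rose.

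Ly6a, Ly6c1 and their neighbour Ly6c2, a marker of inflammatory monocytes, are closely related copies, so the split of their reads is uncertain. Of all windows of 50 bases in Ly6c1 transcripts, 32.8% also occur in another gene, 21.5% in Ly6c2 and 11.1% in Ly6a. For Ly6a the share is 19.0%, while Psca, Ly6d, Ly6e and Lypd2 share 0 windows. Of the 7 genes, Ly6c1 was the 1 matched in the RefSeq promoter table (GRCm38.p6). The 250 bases before its start and before that of Ly6c2, both on the minus strand, are shown because the copies differ in level: per exon length, Ly6c1 was at 132 to 270 RPKM and Ly6c2 at 1.77 to 10.8 RPKM in lung. The intervals are chr15:75048838-75049087 for Ly6c1 and chr15:75111972-75112221 for Ly6c2, and capitals mark bases that differ or have no partner in an alignment of both.
Ly6c1: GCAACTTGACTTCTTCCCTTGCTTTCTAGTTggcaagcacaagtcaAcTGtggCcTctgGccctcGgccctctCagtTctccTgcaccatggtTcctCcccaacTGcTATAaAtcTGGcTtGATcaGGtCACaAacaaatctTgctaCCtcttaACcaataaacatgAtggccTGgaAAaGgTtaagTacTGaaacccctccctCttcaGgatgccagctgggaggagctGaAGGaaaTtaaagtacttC
Ly6c2: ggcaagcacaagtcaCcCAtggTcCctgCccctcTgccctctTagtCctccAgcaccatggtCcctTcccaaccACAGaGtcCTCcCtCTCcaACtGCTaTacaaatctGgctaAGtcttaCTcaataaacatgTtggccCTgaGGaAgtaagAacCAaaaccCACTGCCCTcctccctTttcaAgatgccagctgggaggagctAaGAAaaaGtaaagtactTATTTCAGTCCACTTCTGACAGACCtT
Of 216 aligned columns without a gap, 164 are identical (75.9%), and a further 68 columns hold a gap. Of the promoter entries of both genes, the pair with the most identical aligned bases was taken. The share and the matches below hold for that pair alone. TATAAA occurs 1 time in the Ly6c1 window and 0 times in that of Ly6c2, searched on both strands, and in 12.4% of 32851 promoters of the same kind. CCAAT likewise occurs 1 time and 0 times, and in 33.8% of promoters. The E2F-type words TTTCCCGC and TTTGGCGC and the STAT-type TTCNNNGAA occur in neither window, and in 0.895%, 0.417% and 7.02% of promoters. A match is a description of letters, not a site.

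In the TA mice, where only rtTA is present, the relatives of Psca were compared between tissues. Between lung and kidney 5 of the 6 were called by edgeR, against 60.6% of all genes. Between liver and kidney it was 4 of 6 against 64.9%, and between lung and liver 5 of 6 against 71.5%. For a set of 6 genes these counts lie near the shares of all genes, so nothing is read from them. Ly6k is counted as called in the comparisons with lung, but it passed the filter only through lung. Nothing is read from its calls. Lypd2 was higher in lung than in kidney by 2.51 ± 0.35 on the log2 scale (SE, edgeR adjusted p = 0.000167) and was lower in liver than in kidney (edgeR adjusted p = 2.29e-06). No size is given for liver, where the TA libraries had 5, 0 and 0 counts of Lypd2.

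Ly6c1 differed between lung and kidney by 1.19 ± 0.28 (SE, edgeR adjusted p = 0.00474) and between liver and kidney by -6.33 ± 0.36 (SE, edgeR adjusted p = 4.24e-07), both on the log2 scale. Ly6a was lower in liver than in kidney by a log2 difference of -4.13 ± 0.66 (SE, edgeR adjusted p = 0.000395), or -5.30 without liver TA 1. Its lung and kidney levels were 0.05 ± 0.58 apart (SE, edgeR adjusted p = 0.951). Ly6e was lowest in kidney, with liver higher by 1.59 ± 0.28 (SE, edgeR adjusted p = 0.00064) and lung by 1.84 ± 0.28 (SE, edgeR adjusted p = 0.000317).

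Ly6k had 140, 204 and 59 counts in TA lungs, 6, 8 and 2 counts in TA kidneys and 0, 2 and 0 counts in TA livers. Its fitted lung to kidney difference was 3.10 ± 0.71 (SE). Because it passed the filter of this fit only through lung, the difference is a description with no test. Its reads cannot be told apart from those of Gm17189. Ly6d was higher in TA lung than in TA liver by 2.89 ± 0.70 (SE, edgeR adjusted p = 0.00409). Its lung to kidney difference of 1.67 ± 0.66 (SE, edgeR adjusted p = 0.0498) passed in 7 of 16 settings tried, with adjusted p values from 0.012 to 0.238. Without TA lung 3, which holds the squamous markers, it was 0.85.

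Per exon length, TA kidney had Ly6a first (383 ± 111 RPKM, SD, n = 3), then Ly6c1 (70.3 RPKM) and Psca (62.2 RPKM), whose ranges overlapped, then Ly6e, Lypd2, Ly6d and Ly6k. TA lung had Ly6a first (397 ± 112 RPKM), then Ly6e (180 RPKM) and Ly6c1 (161 RPKM), whose ranges overlapped, then Lypd2, Ly6d, Ly6k and Psca. TA liver had Ly6e first (151 RPKM), then Ly6a (21.9 RPKM) and Ly6d (3.11 RPKM). In CCNE-TA liver, Ly6d at 58.1 ± 15.3 RPKM was second to Ly6e and overlapped Ly6a at 51.4 ± 22.3 RPKM.

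No gene next to Psca had a lung difference of that size. Slurp1, a secreted Ly6 protein whose nearest base lies 9.5 kb from the Psca start, was at 3.78 to 8.07 CPM in CCNE-TA lungs and 3.47 to 6.74 CPM in TA lungs, with overlap. Lynx1, a GPI-anchored modulator of nicotinic receptors, stood at 26.6, 23.1 and 21.0 CPM in CCNE-TA and 29.4, 28.5 and 37.5 CPM in TA lungs, all CCNE-TA below all TA, as were 4.24% of lung genes. In kidney Lynx1 was likewise lower in all CCNE-TA libraries, as were 2.75% of kidney genes (log2 fold change -0.70 ± 0.20, SE, edgeR adjusted p = 0.999). Gml, another Ly6 gene of the cluster, was near 0 in all tissues. Them6 and Jrk, neighbours outside the family that were picked by position, stood at 16.8, 21.6 and 22.2 against 16.2, 16.7 and 13.7 CPM and at 6.64, 6.05 and 6.70 against 4.81, 4.95 and 4.97 CPM in lung, both with CCNE-TA higher in every library. Their log2 fold changes there were 0.37 and 0.38 (edgeR adjusted p = 1 for both). Of all lung genes, 3.73% likewise had CCNE-TA libraries all higher.

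**Figure D4:**
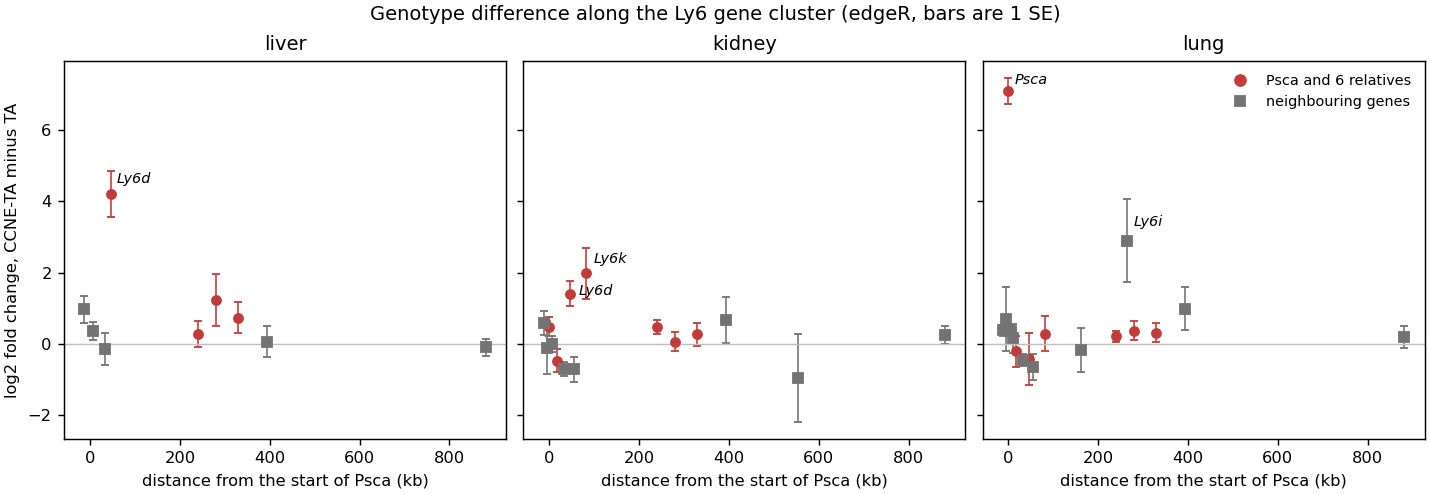
Log2 fold change of CCNE-TA over TA (edgeR, bars of 1 SE) of genes in and around the Ly6 cluster against the distance in kb from the start of Psca to the gene's base of lowest coordinate, in liver, kidney and lung, with the 7 genes as red circles and neighbours as grey squares. In lung Psca is at 7.09 while Slurp1, at 9.5 kb, and Lypd2, at 17.4 kb, are at 0.16 and -0.21.

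Ly6i, a myeloid-associated neighbour of Ly6a, was high in 1 lung, with 18.2, 1.71 and 0.905 CPM in CCNE-TA and 0.942, 1.26 and 0.584 CPM in TA libraries. Ly6c2 had its highest level in the same library, at 29.6, 12.1 and 6.23 CPM in CCNE-TA and 8.35, 10.9 and 4.84 CPM in TA lungs. Neutrophil markers summed to 496 CPM in that library, CCNE-TA 1, and to 103 to 222 CPM in the other lungs. Monocyte and macrophage markers were highest there as well, at 5020 CPM against 2130 to 4020 CPM. Their part in both genes was not tested. Neither gene was called (edgeR adjusted p = 1 for both).

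Of 41 other genes with a Ly6/uPAR domain, 36 were in the table, and edgeR tested 7 in liver, 13 in kidney and 23 in lung. In each tissue edgeR and DESeq2 called 0 of them, while 1, 1 and 2 had an unadjusted edgeR p under 0.05. The median log2 fold change was 0.07 in liver, 0.15 in kidney and -0.30 in lung. Lypd3, a uPAR-domain protein of squamous epithelium that was picked after its values were seen, had 18.4 CPM in lung CCNE-TA 1, 23.1 CPM in TA 3 and between 0.0731 and 0.517 CPM in the remaining 4 lungs.

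Genes that build the GPI anchor changed in liver in both directions: of 28 tested, 4 rose and 5 fell, with a median log2 fold change of -0.13. Of all liver genes 13.7% rose and 14.8% fell, so this list lies near the background. Pigp, a subunit of the first transferase, rose from 17.3 ± 4.24 to 68.3 ± 12.1 CPM (SD, n = 3 per group, edgeR adjusted p = 0.00265). Dpm3, a subunit of dolichol-phosphate mannose synthase, rose by 0.98 ± 0.17 on the log2 scale (SE, edgeR adjusted p = 0.00766). Pigt, a subunit of the transamidase that attaches the anchor, fell from 82.0 ± 6.97 to 26.1 ± 8.07 CPM (SD, n = 3 per group, edgeR adjusted p = 0.00393). In kidney and lung edgeR called 0 of 28, 0 had an unadjusted p under 0.05, and DESeq2 called 0.

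Of the nicotinic receptor subunits, which some Ly6 proteins bind, 4 were tested in liver, and 2 rose, against 13.7% of all liver genes. Chrnb1 rose by 2.51 ± 0.50 (SE, edgeR adjusted p = 0.0107) and Chrna4 by 3.15 ± 0.92 (SE, edgeR adjusted p = 0.0477). In kidney edgeR called 0 of 6 and in lung 0 of 9, with 1 and 0 at an unadjusted p under 0.05, and DESeq2 called 0 in both.

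Interferon-induced genes, a class that Ly6e and Ly6a are known to belong to, gave 6 of 20 higher and 0 lower in liver, against 13.7% and 14.8% of all liver genes, with a median log2 fold change of 0.76. Oas2, an antiviral nucleotide synthase, rose by 2.54 ± 0.44 (SE, edgeR adjusted p = 0.00759), Bst2, the virion tether tetherin, by 1.32 ± 0.25 (SE, edgeR adjusted p = 0.00916), and Xaf1, a pro-apoptotic factor, by 1.58 ± 0.33 (SE, edgeR adjusted p = 0.0122). In kidney and lung the medians were 0.57 and 0.73, and edgeR called 0 of 20 in each. There 3 and 5 had an unadjusted p under 0.05, as had 324 of all 15247 kidney genes and 614 of all 16823 lung genes. DESeq2 called 0 of the list in kidney and 1, Xaf1, in lung.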

How the data were processed

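The authors deposited raw counts, 1 whole number per gene symbol and library, without normalization. Per the submitters' processing notes, the tools were TopHat2 2.0.14, Bowtie2 2.2.6 and featureCounts 1.4.6 of Subread, with the build mm10. The annotation, strand setting and handling of reads with several alignments are not given in the sources used here. Between 64.2% and 71.2% of the low counts (1 to 20) in a library were even numbers, so a count is not 1 independent molecule. The labels name the TruSeq RNA kit, version 2, which does not mark strand.

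Each tissue was fitted with edgeR 4.0.16 in R 4.3.3 (filterByExpr, TMM scaling, robust quasi-likelihood F test), with Benjamini-Hochberg adjustment over all tested genes and a threshold of 0.05. The SE is the size of the fold change over the root of the F statistic. Tissues were compared in TA mice in 1 fit of their 9 libraries, and the liver and kidney effects in 1 fit of all 18. Printed CPM and RPKM values used TMM factors over all 18 libraries and exon lengths from GENCODE M21, found for 98.4% of symbols. Scripts were tested on simulated data.

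The genes and lists were chosen with earlier results of these data known. Named genes were the 7 genes in every library, other Ly6/uPAR genes that were called or lie next to them, up to 3 called genes per tissue of the GPI anchor, nicotinic receptor and interferon lists, the 5 genes most like Psca and Ly6d, and Ccne1. Alternatives were DESeq2 1.42.0, limma-voom (limma 3.58.1), other scalings, no filter, all libraries in 1 fit, Xist class, a length and GC correction by splines with 4 degrees of freedom, a replicate block and the leaving out of libraries. In kidney, libraries of the same number deviated together, with correlations across genes of 0.20, 0.34 and 0.25, but the labels give no pairing. The kidney values printed above come from fits of genotype alone, without pairs. With the replicate block, the kidney difference was 1.31 ± 0.31 for Ly6d (SE, edgeR adjusted p = 0.572). For Ly6e it was 0.49 ± 0.11 (SE, edgeR adjusted p = 0.557).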

Additional observations from a re-analysis of the deposited data

Results flagged for a closer look

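The genotype difference in Psca differed between liver and kidney, by 8.28 on the log2 scale (SE 1.38, edgeR adjusted p = 0.00692), in a test of the difference itself. Psca was higher in 3 of 3 CCNE-TA livers than in all TA livers, which had 0 counts, and the kidney groups overlapped. Of all tested liver genes, 22.9% had CCNE-TA livers all higher. Over the 19 settings tried, the difference ranged from 4.88 to 8.71 and the adjusted p from 8.84e-05 to 0.0269. The size depends on the prior count, because the TA livers had 0 counts. Psca entered the fit through kidney and lung, and its kidney TA level had a part in choosing the gene, so the call is not independent evidence. All settings rest on the same libraries, so their range adds no support.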

How the results depend on the processing

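Ly6d in liver was called in all 16 settings, at log2 fold changes of 3.41 to 5.13 and adjusted p values up to 0.0336. Psca in lung ranged from 6.91 to 7.49, the highest without CCNE-TA 1 and TA 3. The liver count of 3942 genes was 1521 to 4582 when 1 library was left out, being 1521 when CCNE-TA 1 was left out and 2513, 1832 and 1670 when TA 1, TA 2 or TA 3 was. Upper quartile scaling moved the liver median to 0.21 and gave 2610 higher and 1367 lower genes, against 1897 and 2045. The liver count of 1 Ly6 gene was 2 with DESeq2, 2 with no filter, 2 with the Xist class, 3 in the fit of all 18 libraries and 1 to 3 with 1 library left out. The genes added were Psca, Ly6a (edgeR adjusted p = 0.0359 with the Xist class) and Ly6k (edgeR adjusted p = 0.0188 in the fit of all libraries). Of all liver genes, DESeq2 called 4831 of 15904, the fit with no filter 3719 of 18416 and that with the Xist class 3599 of 13811. The fit of all 18 libraries called 5548 of 17155. Beside these, nothing is read from the counts of Ly6 genes. Kidney genes called were 2, with 26 by DESeq2 and 1 to 2 with 1 library left out. Lung genes called were 1, with 183 by DESeq2, 94 in the fit of all libraries, 0 by limma-voom, 0 with the replicate block and 0 to 1 with 1 library left out. Of the 7 genes, 1 differed between the liver and kidney effects, with 2 by DESeq2 and 1 to 3 with 1 library left out, 3 being without liver TA 1. In the main fit 9.52% of all genes were called. Shares for the other settings are not given here, so nothing is read from these counts. Signs reversed for 5 log2 fold changes with 1 library left out: Ly6e in liver (-0.07 to 0.56, negative without CCNE-TA 2, and -0.01 with the Xist class), Ly6a in kidney (-0.13 to 0.28, negative without TA 1), Lypd2 in lung (-0.76 to 0.09, positive without CCNE-TA 1), Ly6k in lung (-0.26 to 0.60, negative without CCNE-TA 3) and Ly6d in lung (-1.35 to 0.41, positive without TA 3). The cause was not tested. The replicate block changed no call of the 7 genes in kidney, where it gave 3 genes in all, or in liver, where it gave 3323. Correlations of same-numbered libraries were 0.13, 0.02 and 0.04 in liver, with no sign of pairs, and -0.47, -0.08 and -0.56 in lung. Lung CCNE-TA 1 and TA 3, which hold the squamous markers, correlated at 0.54, so this check cannot decide on pairs in lung. With 3 libraries per group, differences of Psca in liver and of Ly6k rest on few counts.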

Other observations

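Ly6f, a gene of the same cluster that was picked after its values were seen, followed the sex of the kidneys. It stood at 5.83 and 7.67 CPM in the female CCNE-TA kidneys and 9.99 and 16.4 CPM in the female TA kidneys. The male kidneys, replicate 3 of each genotype, stood at 0.539 and 0.490 CPM. This pattern was not tested. In liver, Ly6f was at 1.71 CPM in TA 1, the female TA liver, at 0.0470 and 0.0486 CPM in the male TA livers, and between 0.308 and 0.354 CPM in livers of either sex with the transgene.

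Of the relatives outside the 7 genes, Lypd5 and Pinlyp, also picked after their values were seen, were high in the lungs with squamous keratins. Lypd5 had 9.02 CPM in lung CCNE-TA 1 and 7.46 CPM in lung TA 3, and was at no more than 0.0955 CPM in the other lungs. Pinlyp was at 2.51 and 4.71 CPM in the same libraries and at no more than 0.111 CPM elsewhere in lung.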
